A study of Mus musculus with 12 samples.

Results

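The expression shared by tumours of all chronically stressed mice, whatever their treatment, was compared with that of unstressed tumours in bulk RNA sequencing of subcutaneous colorectal cancer tissue from mice. The comparison used all 12 of the 12 libraries: 9 from the 3 stressed groups, each group given equal weight, against 3 controls. The control group (Ctrl) carried tumours alone, and the Stress group carried tumours under chronic stress. The low-dose (XCHT-L) and high-dose (XCHT-H) groups carried tumours under stress and were also given a decoction of the Xiao-chai-hu formula, a mixture of medicinal herbs. Whether the stress was alike in the 3 stressed groups is not stated. Each group had 3 libraries, and all 4 groups bore the tumour. The labels state no amount for either dose, no tumour line, no mouse strain, no kind or length of stress, and not whether the libraries of a group came from separate mice. Without that, a p-value speaks of how far these libraries spread and may include technical spread. As 6 of the 9 stressed libraries also came from treated mice, the Stress group's own values are given beside many of the averages, but not all. A range given as under stress pools treated and untreated stressed libraries.

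Chronic stress reaches a tumour mainly through hormones. Glucocorticoids from the adrenal cortex enter cells and bind the glucocorticoid receptor, encoded by Nr3c1, which moves to the nucleus and acts on genes that carry its response element. Adrenaline and noradrenaline act on adrenergic receptors, of which the beta type raise cyclic AMP and activate the transcription factor CREB. In tumours these routes are known for effects on immune cells, vessels and the survival of cancer cells.

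The labelled tissue was checked against markers of colorectal epithelium. Of 18 listed markers, 15 were in the table, and 11 of them lay below 1 FPKM (the authors' fragment counts scaled for gene length and library size) in all 12 libraries. These included Epcam, with 0 to 14 counts per library, and the simple-epithelial keratins Krt8, with 0 to 2 counts, and Krt18, with 0 to 1. Sox9, Lgals4 and Klf5 were above 1 FPKM in all 12. The defining epithelial markers of the labelled tissue were thus at or near 0 in control and stressed tumours alike, and the tissue is called tumour here as the labels have it.

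Total counts ran from 16734738 to 17950181 per library, and 13453 genes were tested. Transcripts of skeletal muscle were highest in 3 libraries: 1 control (replicate 1), 1 XCHT-L (replicate 3) and 1 XCHT-H (replicate 2). Their scores, the mean centred log2 levels of the muscle genes, were 3.09, 2.20 and 3.61. Stress replicate 1 came next at 1.03, then control replicate 3 at 0.23. The 3 libraries called muscle-rich below are thus the 3 highest of a graded series. The libraries also differed in how expression ran with transcript length: across genes, log2 differences from control correlated with log2 length at r = -0.40 in XCHT-L, against -0.02 in Stress and -0.14 in XCHT-H. Genes are not independent replicates, so these r values are descriptions.

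Promoters were read for the genes described below, since glucocorticoid and cyclic AMP signals act through known DNA elements. Of 31 genes looked up, 20 had an entry in the RefSeq promoter table for GRCm38.p6, with 38 windows of 300 bases that run from 250 bases before to 50 after a start. The glucocorticoid response element was searched as GNACA and TGTNC with any 3 bases between them, the cyclic AMP response element as TGACGTCA, the E-box as CACGTG and the AP-1 site as TGANTCA, on both strands. The elements occur in 0.475%, 1.79%, 7.15% and 7.81% of the 32851 promoters of the table, in that order. A match to the glucocorticoid element was found in 1 window of Sgk1 and 1 of Serpina3n, genes whose values follow. The Sgk1 window is 1 of 6 for that gene and lies at chr10:21993640-21993939 on the plus strand, and the Serpina3n window lies at chr12:104406458-104406757 on the plus strand. They are shown 5′ to 3′ because they hold the only matches to the glucocorticoid element among the 38 windows. Capitals mark GAACAGAATGTTC from base 63 and the E-box CACGTG from base 5 in Sgk1, and GCACAGCTTGTCC from base 173 in Serpina3n, counted from the 5′ end.
Sgk1: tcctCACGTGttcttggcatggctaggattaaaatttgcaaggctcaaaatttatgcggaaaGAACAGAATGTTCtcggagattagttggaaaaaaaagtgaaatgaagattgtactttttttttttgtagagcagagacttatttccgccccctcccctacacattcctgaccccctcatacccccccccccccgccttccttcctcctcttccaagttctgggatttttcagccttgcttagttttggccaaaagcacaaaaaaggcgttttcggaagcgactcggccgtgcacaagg
Serpina3n: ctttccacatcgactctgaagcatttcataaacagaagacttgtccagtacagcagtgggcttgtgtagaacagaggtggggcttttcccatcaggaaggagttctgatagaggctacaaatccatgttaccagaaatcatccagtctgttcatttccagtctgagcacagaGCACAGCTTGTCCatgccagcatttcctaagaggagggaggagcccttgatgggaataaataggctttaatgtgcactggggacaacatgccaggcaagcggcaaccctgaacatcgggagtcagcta
A match describes letters in a window, not binding.

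No gene passed the test in the averaged comparison: edgeR's quasi-likelihood test with Benjamini-Hochberg adjustment called 0 of 13453 genes (0%), and the smallest adjusted p was 0.401. At an unadjusted p under 0.05 it listed 503 genes, or 3.74% of those tested, 205 higher (1.52%) and 298 lower (2.22%) in the stressed tumours. If no gene differed, that threshold would still list a share of about 0.05, which is more than was listed. An unadjusted p under 0.05 therefore does not mark a change by itself. DESeq2 called 2 genes (0.0149%) and listed 554 at an unadjusted p under 0.05 (4.13%). Limma-voom with quality weights called 1 (0.00743%) and listed 1705 (12.7%). Both tools called Rasgef1a, and DESeq2 also called Mgat3, each lower in the stressed tumours. Each stressed group set against the controls by itself also gave 0 adjusted calls, although the groups differed in how many genes had an unadjusted p under 0.05. Stress had 383 (2.85%; 148 higher, 1.1%, and 235 lower, 1.75%). XCHT-L had 1773 (13.2%; 868 higher, 6.45%, and 905 lower, 6.73%). XCHT-H had 140 (1.04%; 78 higher, 0.58%, and 62 lower, 0.461%). One sign in the 3 groups, with no test, was shown by 6590 genes (49%), of which 3444 were higher (25.6%) and 3146 lower (23.4%). Among the 503 it was shown by 492, but these were chosen by the mean of the same 3 contrasts, which share the controls. That count therefore says little about whether the groups changed alike. The genes described from here on are therefore values that did not pass the edgeR test, named as those with the smallest p in each direction with 1 sign in the 3 groups. The median standard error of a log2 difference was 0.134 in the averaged comparison.

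Mgat3 and Rasgef1a were the genes with the smallest p. Mgat3 (chr15:80173651-80215519) encodes the glycosyltransferase that adds the bisecting N-acetylglucosamine to N-linked glycans, a step that limits their further branching. Its level was 154, 155 and 188 CPM (counts scaled to a common library size) in the controls, 102, 108 and 126 in Stress, 118, 109 and 113 in XCHT-L, and 126, 120 and 120 in XCHT-H. All 9 stressed libraries lay below all 3 controls, and the 3 stressed groups lay close together. The log2 difference was -0.52 (SE 0.08, edgeR adjusted p = 0.401, DESeq2 adjusted p = 0.000827, limma-voom adjusted p = 0.0934), with -0.56 in Stress, -0.55 in XCHT-L and -0.44 in XCHT-H.

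Rasgef1a (chr6:118011505-118091546) encodes an exchange factor for small GTPases of the Ras family. Its level was 5.21, 4.88 and 6.31 CPM in the controls, 1.92, 2.62 and 1.37 in Stress, 1.35, 2.36 and 1.20 in XCHT-L, and 2.44, 2.35 and 3.08 in XCHT-H. The highest stressed library stood well below the lowest control. The log2 difference was -1.42 (SE 0.24, edgeR adjusted p = 0.401, DESeq2 adjusted p = 0.00118, limma-voom adjusted p = 0.0451), with -1.47, -1.73 and -1.06 in Stress, XCHT-L and XCHT-H. With each library left out in turn, the difference ran from -1.54 to -1.30 for Rasgef1a and from -0.57 to -0.42 for Mgat3.

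**Figure D1:**
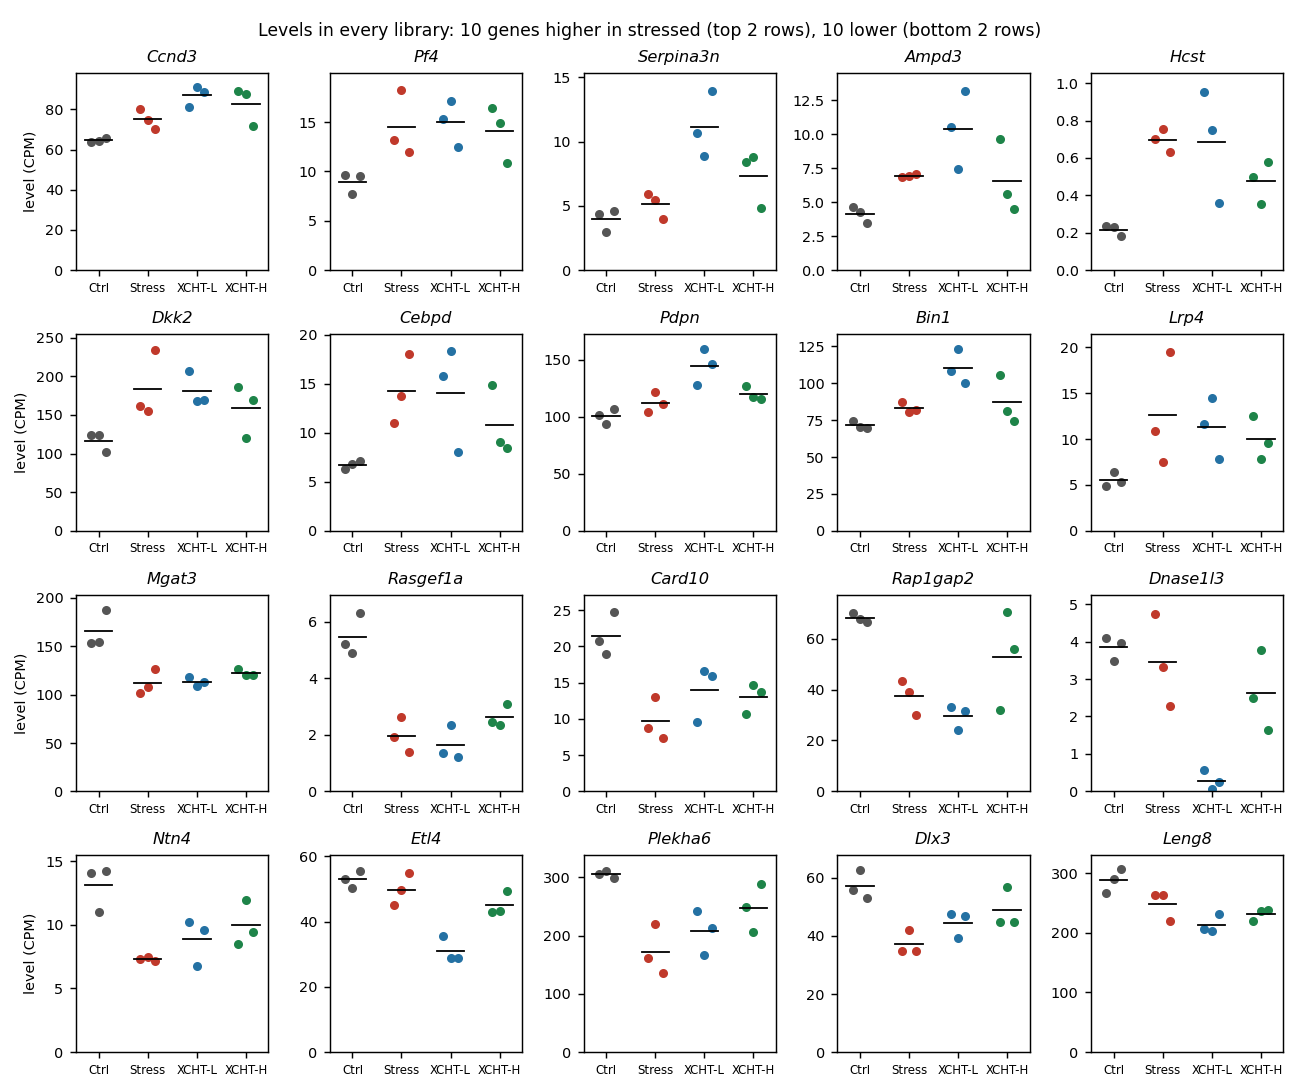
Level in CPM (vertical axes, starting at 0) of the 20 named genes in each of the 12 libraries; points are libraries and bars are group means of 3. Mgat3 and Rasgef1a lie lower in all 9 stressed libraries, 102 to 126 and 1.20 to 3.08 CPM, than in the controls.

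The other 8 genes named as lower differed in how well they separated the libraries. Card10, a scaffold that links membrane receptors to NF-kB, lay at 20.8, 18.9 and 24.7 CPM in the controls and between 7.39 and 16.6, with a median of 13.1, in the 9 stressed libraries. Its log2 difference was -0.83 (SE 0.19), with -1.15 in Stress, -0.62 in XCHT-L and -0.72 in XCHT-H. Stressed and control libraries did not overlap. Plekha6, a protein with a pleckstrin homology domain, lay at 305, 310 and 299 CPM in the controls and between 136 and 288 under stress, again without overlap (log2 difference -0.56, SE 0.14). Leng8 also separated, at 267, 290 and 306 CPM against 203 to 264 (-0.32, SE 0.08).

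Rap1gap2, which switches off the small GTPase Rap1, lay at 69.9, 67.8 and 66.7 CPM in the controls, at 43.4, 39 and 29.8 in Stress, 33.3, 24.1 and 31.7 in XCHT-L, and 31.8, 70.6 and 55.8 in XCHT-H. One XCHT-H library thus stood above the controls (log2 difference -0.81, SE 0.19). Ntn4, a netrin of basement membranes, stood lower by a log2 difference of -0.60 (SE 0.15), and Dlx3, a homeobox transcription factor of epidermis and placenta, by -0.40 (SE 0.10). In both, 8 of 9 stressed libraries lay below the lowest control. Both were lowest in Stress (log2 difference -0.84 for Ntn4 and -0.62 for Dlx3).

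Dnase1l3 and Etl4 were lowest in XCHT-L, so their averaged values do not describe the 3 groups alike. Dnase1l3, a secreted nuclease made by dendritic cells and macrophages, lay at 4.10, 3.49 and 3.96 CPM in the controls, 4.72, 3.32 and 2.29 in Stress, 0.562, 0.0575 and 0.241 in XCHT-L, and 2.5, 3.76 and 1.63 in XCHT-H. Its log2 difference was -0.16 in Stress, -3.71 in XCHT-L and -0.55 in XCHT-H, and the unadjusted edgeR p for a difference among the stressed groups was 0.000102. Etl4 gave -0.09, -0.77 and -0.23 in the same order, with a p of 0.000196. Without the XCHT-L group the averaged log2 difference was -0.35 for Dnase1l3 and -0.16 for Etl4.

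Of the 10 genes named as higher, 5 did not overlap between stressed and control libraries: Ccnd3, Pf4, Hcst, Cebpd and Lrp4. Over all genes tested, 67 (0.498%) lay above the controls in all 9 stressed libraries and 73 (0.543%) below. Among the 10 named as lower, 5 did so. As these genes were chosen by their p in the same libraries, the counts of separation describe them and lend no further support. The smallest p that an exact permutation of 9 against 3 libraries can give is 0.00909.

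Cebpd (chr16:15887286-15889545) encodes a transcription factor that acute-phase and glucocorticoid signals raise in many cells. It lay at 6.27, 6.80 and 7.15 CPM in the controls, 11, 13.8 and 18 in Stress, 15.8, 18.3 and 8.07 in XCHT-L, and 14.8, 9.05 and 8.42 in XCHT-H. All stressed libraries lay above the controls, with a log2 difference of 0.94 (SE 0.26, edgeR adjusted p = 0.969). Serpina3n, a secreted inhibitor of serine proteases, lay at 4.39, 2.96 and 4.56 CPM in the controls and between 4.01 and 13.9 under stress. Its difference was 0.91 (SE 0.24), made up of 0.37 in Stress, 1.49 in XCHT-L and 0.89 in XCHT-H.

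Pf4, a chemokine of platelets and their precursors that some macrophages also make, lay at 9.66, 7.67 and 9.55 CPM in the controls and between 10.9 and 18.3 under stress. The log2 differences of the groups were 0.69, 0.74 and 0.65 in Stress, XCHT-L and XCHT-H, the most even of the 10. Hcst, the adaptor of the activating receptor NKG2D on natural killer and T cells, was near the limit of detection at 0.234, 0.232 and 0.180 CPM in the controls and 0.353 to 0.955 under stress. Its log2 difference of 1.47 (SE 0.40) rests on few reads.

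Dkk2, a secreted modulator of Wnt signalling, lay at 124, 124 and 102 CPM in the controls and between 120 and 234 under stress (log2 difference 0.58, SE 0.16). Lrp4, a receptor of the LDL-receptor family that binds agrin and Wnt modulators, lay at 4.92, 6.39 and 5.28 CPM in the controls and between 7.46 and 19.5 under stress (1.02, SE 0.29). Ccnd3, the cyclin D3 of G1 phase, lay at 63.9, 64.5 and 65.8 CPM in the controls and between 70.4 and 91.1 under stress (0.33, SE 0.08). The controls of Ccnd3 lay within a narrow band, so a small difference separated the groups.

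Ampd3, an AMP deaminase of purine turnover, stood at a log2 difference of 0.92 (SE 0.24), Bin1, which bends membranes, at 0.38 (SE 0.10) and Pdpn, the podoplanin of fibroblasts and lymphatic vessels, at 0.31 (SE 0.09). In these 3 genes 8 of 9 stressed libraries lay above the highest control. Pdpn and Bin1 stood highest in XCHT-L, at 0.52 and 0.63, against 0.16 and 0.22 in Stress. Ampd3 was also highest in XCHT-L, at 1.34, against 0.75 in Stress and 0.68 in XCHT-H.

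**Figure D2:**
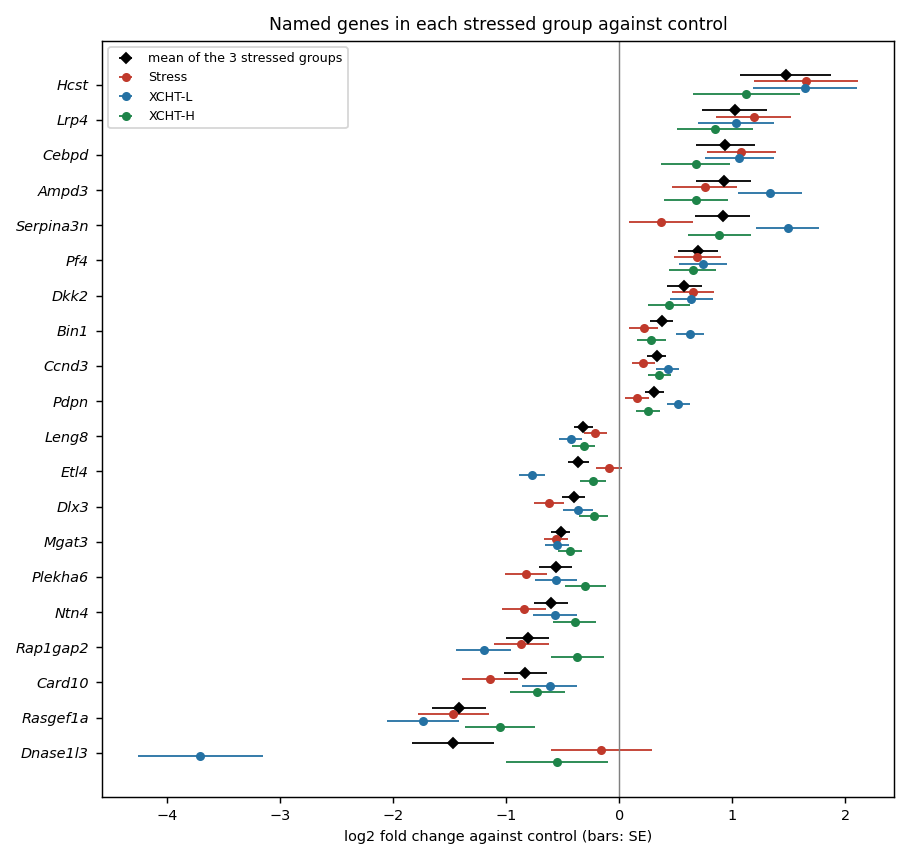
Log2 fold change against control (horizontal axis, bars are SE) of the 20 named genes, averaged over the stressed groups (black) and in each group. Mgat3 and Pf4 show similar values in all 3 groups, whereas Dnase1l3 lies at -3.71 in XCHT-L against -0.16 in Stress.

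A stricter reading of a change in all stressed groups asks for an unadjusted edgeR p under 0.05 and 1 sign in each group against control, which 22 genes met, 0.164% of those tested (14 higher, 0.104%, and 8 lower, 0.0595%). The 3 contrasts share the control libraries, so a control level that happens to be extreme enters all of them. The 22 held 9 of the 20 genes above: Mgat3, Rasgef1a and Card10 lower, and Pf4, Ampd3, Hcst, Dkk2, Cebpd and Lrp4 higher. The other 13 fell outside the rule for naming, so those given next were chosen after their values were seen. Gas6, the ligand of the TAM receptors that macrophages use in clearing dead cells, lay at 6.01 to 8.61 CPM in the controls and 8.08 to 25.6 under stress, with log2 differences of 1.25, 1.31 and 1.37 in Stress, XCHT-L and XCHT-H. Adam33, a membrane metalloprotease of mesenchymal cells, lay at 0.360 to 0.585 CPM against 0.758 to 1.71. Marco, a scavenger receptor of macrophages, lay at 0 to 0.116 CPM in the controls and at 0.0575 to 1.33 under stress, levels of few reads.

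Among the lower genes of that set, Myo1d, an unconventional myosin, lay at 12.9 to 14.1 CPM in the controls and 6.26 to 11.5 under stress (log2 difference -0.56, SE 0.15). Ccng2, a cyclin G family member, lay at 76.5 to 86.1 CPM against 47.5 to 74.8 (-0.38, SE 0.12). Zmym3, a zinc finger protein of chromatin, lay at 45.9 to 51.7 CPM against 28.9 to 44.1 (-0.38, SE 0.11). Nrg2, a neuregulin ligand of ERBB receptors, lay at 1.52 to 2.27 CPM against 0.408 to 1.11. None of these 4 genes overlapped between control and stressed libraries, beside 73 genes (0.543%) of all tested that lay below the controls. They were chosen by their p in the same libraries, so the separation lends no further support.

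No difference was detectable in the corticosteroid receptors. Nr3c1, the glucocorticoid receptor, lay at 111, 107 and 109 CPM in the controls and between 88.3 and 126 under stress, with a log2 difference of 0.04 (SE 0.10, edgeR adjusted p = 0.988). Nr3c2, the mineralocorticoid receptor, gave 0.15 (SE 0.32) at a few CPM. Hsd11b1, which regenerates active glucocorticoid inside cells, lay at 1.99, 2.09 and 1.56 CPM in the controls and between 1.80 and 5.62 under stress (0.78, SE 0.33, edgeR adjusted p = 0.969), with 7 of 9 stressed libraries above the highest control. Its unadjusted edgeR p was under 0.05 with all libraries and in 6 of 12 fits that left out 1 library.

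Of 20 known targets of the glucocorticoid receptor tested, 13 were higher and 7 lower, with a median log2 difference of 0.12, beside 51% higher, 49% lower and a median of 0.00 over all genes. The group medians were 0.13 in Stress, 0.18 in XCHT-L and 0.03 in XCHT-H. None passed after adjustment, and 3 had an unadjusted edgeR p under 0.05, all higher: Cebpd, Angptl4 and Sgk1. Over all genes 1.52% were higher at that threshold. The scores of control and stressed libraries overlapped. Sgk1, the kinase whose window is printed above, lay at 46.7, 53 and 50.9 CPM in the controls, 62.9, 66.0 and 129 in Stress, 93.2, 80.5 and 59.0 in XCHT-L, and 61.0, 59.7 and 62.3 in XCHT-H. All 9 stressed libraries lay above the controls (log2 difference 0.56, SE 0.21). Angptl4, a secreted inhibitor of lipoprotein lipase, lay at 60.8, 35.0 and 45.6 CPM in the controls and between 50.5 and 104 under stress (0.61, SE 0.21), with overlap.

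Of 16 targets of cyclic AMP and CREB tested, 13 were higher and 3 lower, with a median of 0.24, and medians of 0.30, 0.04 and 0.21 in Stress, XCHT-L and XCHT-H. Nr4a2, an orphan nuclear receptor that CREB induces, gave 0.38 (SE 0.15, edgeR adjusted p = 0.969). Of 17 genes of the circadian clock, 8 were higher and 9 lower, with a median of -0.02. Arntl, the clock's activator, stood at -0.20 (SE 0.09), and Per2, a repressor in the same loop, at 0.41 (SE 0.19), each with an unadjusted edgeR p under 0.05 that held in 4 of 12 fits without 1 library. Immediate early genes had a median of 0.07 over 23 tested, with 0.50 in XCHT-L and -0.15 in XCHT-H.

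Markers of several stromal and immune cells stood higher on average. In bulk tissue, a change in the number of cells of a type and a change in RNA per cell cannot be told apart. Of 19 macrophage markers 18 were higher, with a median of 0.28, and the group medians were close, at 0.28, 0.35 and 0.23 in Stress, XCHT-L and XCHT-H. Lyz2, the lysozyme of myeloid cells, lay at 572, 510 and 521 CPM in the controls and between 401 and 1362 under stress (0.64, SE 0.25). Trem2, a lipid receptor of tissue and tumour macrophages, gave 0.54 (SE 0.21). The macrophage score, the mean centred log2 CPM of the list, ran from -0.33 to -0.11 in the controls and from -0.43 to 0.52 under stress, so the libraries overlapped.

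Of 18 fibroblast markers 14 were higher, with a median of 0.29, and 0.19, 0.52 and 0.28 in the groups in the same order. Dpt, a matrix protein of fibroblasts, lay at 13.0, 6.16 and 10.4 CPM in the controls and between 8.76 and 36.8 under stress (1.05, SE 0.38). Clec3b, a secreted lectin of some fibroblasts, lay at 1.64, 1.10 and 1.86 CPM against 1.57 to 23.5 (2.17, SE 0.81). Their stressed libraries were widely spread. Markers of natural killer and cytotoxic cells were higher in 18 of 20, with a median of 0.26, but 0.46 in Stress and 0.06 in XCHT-L, and without Stress replicate 1 the median was 0.10. All 7 mast cell markers were higher on average (median 0.57, and 0.66, 0.34 and 1.18 in Stress, XCHT-L and XCHT-H). Their score was 1.55 in Stress replicate 3, 1.51 in XCHT-H replicate 1 and 0.47 in Stress replicate 1, while the other 6 stressed libraries, at -0.62 to -0.25, were in or below the control range of -0.58 to -0.01. With a count minimum of 50 the mast cell median was 0.23. All 4 red blood cell markers were higher on average (0.75). The red blood cell median was 0.04 without XCHT-H replicate 1, which stood at a score of 3.14.

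Antigen-presenting cells gave a mixed picture. All 11 genes of MHC class II, which presents antigen to helper T cells, were lower, with a median of -0.40. The median was -1.01 in XCHT-L, -0.09 in Stress and -0.14 in XCHT-H, and -0.13 over Stress and XCHT-H without XCHT-L. H2-Eb1, a class II beta chain, lay at 318, 317 and 331 CPM in the controls, 496, 263 and 149 in Stress, 210, 56.5 and 106 in XCHT-L, and 224, 304 and 239 in XCHT-H. The averaged class II median was -0.62 without Stress replicate 1. Of 18 dendritic cell markers 9 were higher and 9 lower, with medians of 0.11 in Stress, -0.57 in XCHT-L and 0.08 in XCHT-H, and 8 of the 18 had an unadjusted edgeR p under 0.05 for a difference among the stressed groups, beside 7.49% of all genes. Itgax, the integrin CD11c, gave -0.87 (SE 0.38), and its unadjusted edgeR p was under 0.05 in 4 of 12 fits that left out 1 library.

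All 24 skeletal muscle genes were lower on average, with a median of -0.72. The group medians were -1.91 in Stress, -0.64 in XCHT-L and 0.62 in XCHT-H. Without control replicate 1, which stood at a muscle score of 3.09, the median over the list turned to 1.69. The direction of the muscle genes therefore rested on that control.

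**Figure D3:**
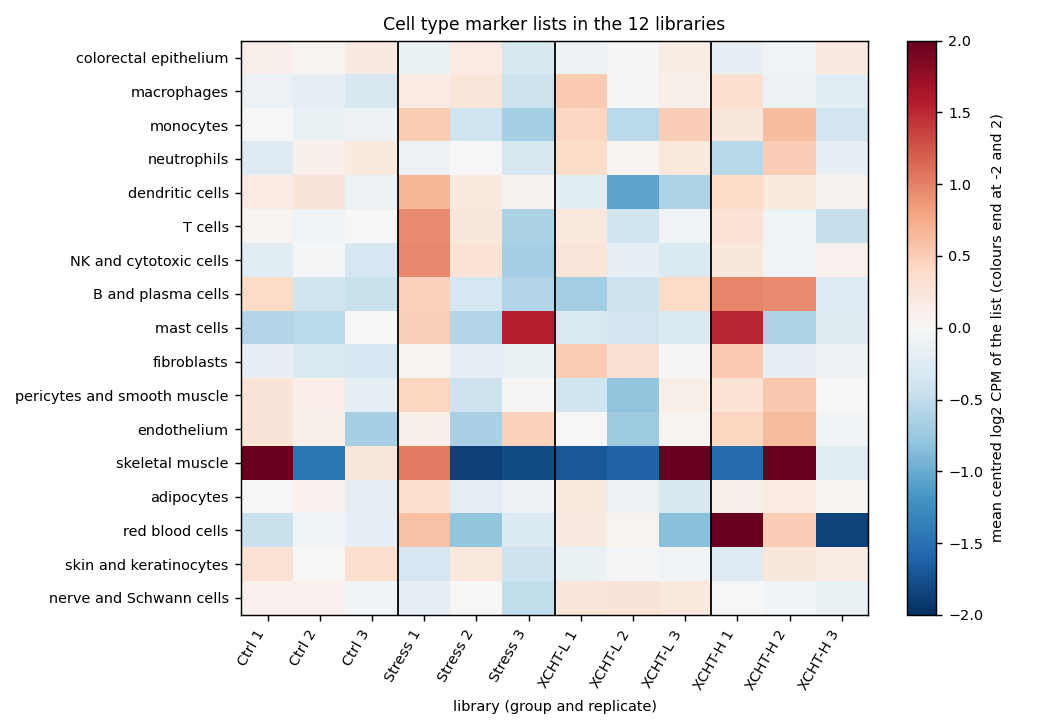
Score of each cell type list, the mean centred log2 CPM of its members (colour, ending at -2 and 2), in the 12 libraries. Skeletal muscle varies most, at 3.09 in Ctrl 1, 2.20 in XCHT-L 3 and 3.61 in XCHT-H 2, and no list separates the controls from all stressed libraries.

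The lists of adhesion and matrix genes did not share a direction. Of 22 integrins and laminins 19 were lower, with a median of -0.14 and -0.03, -0.22 and -0.03 in Stress, XCHT-L and XCHT-H. That median was -0.07 with offsets for transcript length and -0.23 without XCHT-L replicate 3. Lamb3, a chain of the laminin that anchors epithelia, lay at 6.09, 14 and 12 CPM in the controls and between 1.91 and 7.78 under stress (-1.37, SE 0.41, edgeR adjusted p = 0.969). Lama5, a basement membrane chain, gave -0.49 (SE 0.17) and Itga6, its integrin partner, -0.30 (SE 0.13). Of 15 junction genes 11 were lower, among them Tjp1, the scaffold ZO-1, at 264, 283 and 248 CPM in the controls and 132 to 249 under stress (-0.37, SE 0.12). Ctnnb1, the beta-catenin of junctions and Wnt signalling, lay at 812, 877 and 861 CPM against 679 to 813 (-0.19, SE 0.08). Cspg4, the proteoglycan NG2 of pericytes and some tumour cells, gave -0.47 (SE 0.15). With each library left out, Lamb3 and Tjp1 had an unadjusted edgeR p under 0.05 in 12 of 12 fits, Lama5 and Cspg4 in 11, Ctnnb1 in 6 and Itga6 in 5. Collagen chains were higher in 12 of 21, with a median of 0.08 that turned to -0.05 without XCHT-L replicate 1, to -0.02 without XCHT-H replicate 2 and to -0.04 with the muscle score as a covariate. Metalloproteinases and their inhibitors were higher in 9 of 16 (median 0.08). Mmp3, the matrix protease stromelysin, gave 1.56 (SE 0.64), with log2 differences of 0.78, 2.39 and 1.51 in Stress, XCHT-L and XCHT-H, and an unadjusted edgeR p under 0.05 in 9 of 12 fits without 1 library.

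The N-glycan list that holds Mgat3 was balanced, with 8 of 14 higher and a median of 0.03. Mgat2, the transferase that makes a second antenna, lay at 94.3, 95.2 and 83.8 CPM in the controls and between 97.7 and 127 under stress, above the controls in all 9 libraries (0.25, SE 0.09). Man1a, a mannosidase that trims mannose from the glycan, gave 0.39 (SE 0.16). Mgat3 and Mgat2 thus lay on opposite sides of the controls without overlap.

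All 22 mitosis genes were lower, with a median of -0.15 and -0.08, -0.23 and -0.16 in Stress, XCHT-L and XCHT-H. Kif23, a kinesin of cytokinesis, lay at 126, 138 and 121 CPM in the controls and between 74.3 and 127 under stress (-0.35, SE 0.15). Cenpe, a kinesin of the kinetochore, also gave -0.35 (SE 0.15). The unadjusted edgeR p of Kif23 was under 0.05 in 4 of 12 fits without 1 library and that of Cenpe in 7. The mitosis median was -0.09 without Stress replicate 2 and -0.25 without the 3 muscle-rich libraries. Genes of DNA replication were split, 11 higher and 11 lower, with a median of -0.02. Of 22 genes of cholesterol synthesis 20 were lower (median -0.21, and -0.12, -0.47 and -0.09 in the groups), with Insig1, a sterol sensor, at -0.43 (SE 0.17). That median was -0.11 without control replicate 2, -0.34 without control replicate 1 and -0.50 without the 3 muscle-rich libraries.

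All 34 ribosomal protein genes were higher, with a median of 0.14, but 0.38 in XCHT-L against 0.02 in Stress and 0.01 in XCHT-H. Once each library's dependence on transcript length was taken out by offsets, the median was 0.03, and without XCHT-L replicate 2 it was 0.07. Of 31 genes of oxidative phosphorylation 26 were higher (median 0.11, with 0.01 under the offsets and 0.06 without XCHT-L replicate 2). Lysosome and autophagy genes were higher in 22 of 29 (median 0.11), led by Ctsd, the lysosomal protease cathepsin D, at 296, 267 and 289 CPM in the controls and 268 to 731 under stress (0.52, SE 0.18). Its value was 0.97 in XCHT-L and 0.20 in Stress. Hypoxia genes were lower in 20 of 23, with a median of -0.09 and values of -0.30, 0.24 and -0.17 in the groups, so their direction was not shared.

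**Figure D4:**
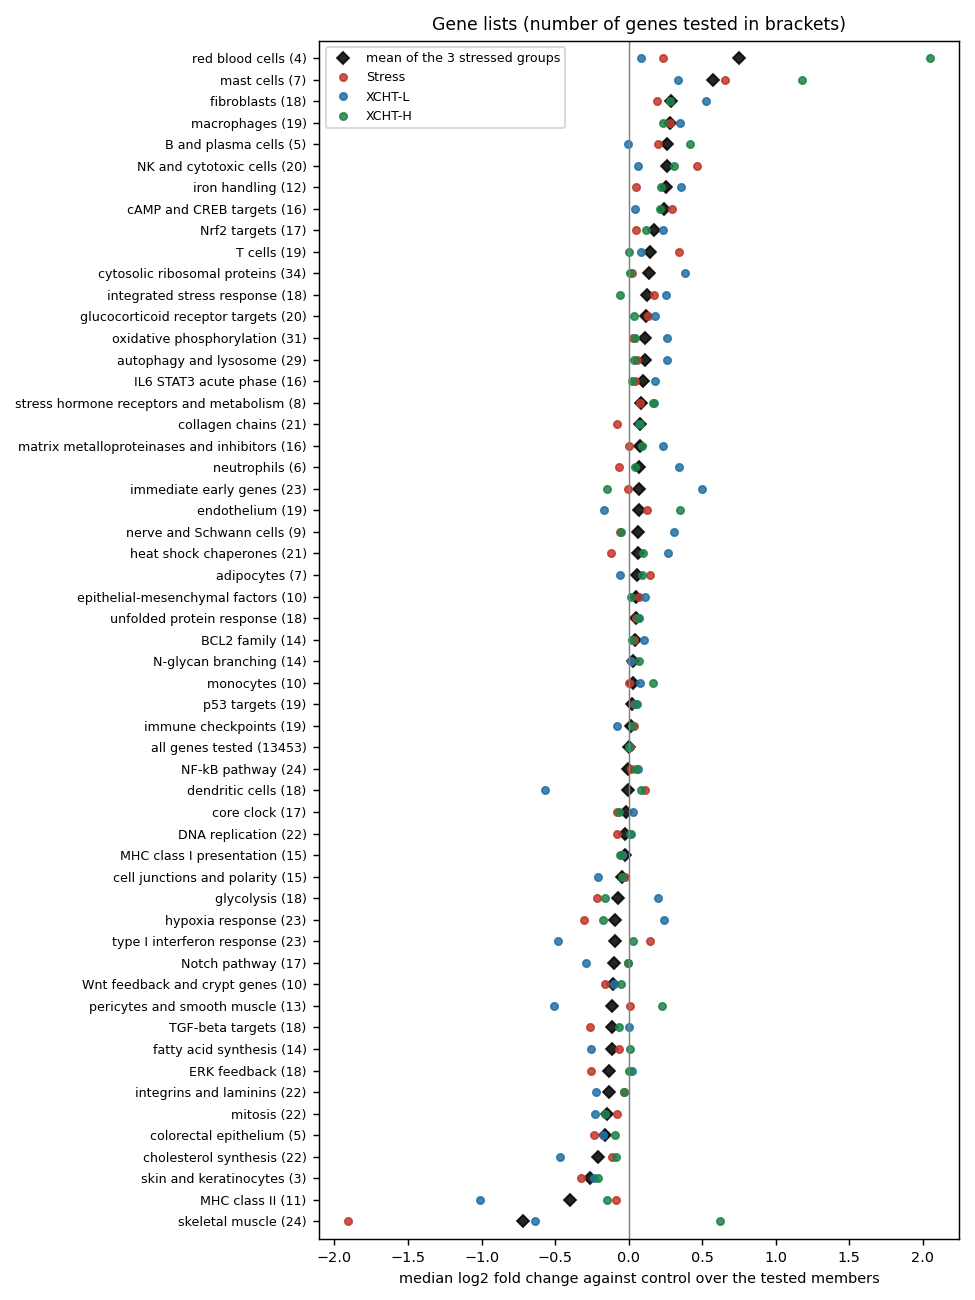
Median log2 fold change against control (horizontal axis) over the tested members of 54 gene lists, with the number tested in brackets, averaged over the stressed groups (black) and in each group. Macrophage markers lie at 0.28, 0.35 and 0.23 in Stress, XCHT-L and XCHT-H, whereas ribosomal protein genes lie at 0.38 in XCHT-L and near 0 in the other groups.

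Over the 54 lists, 32 medians were above 0 and 22 below, and 31 had 1 sign in the 3 groups. By edgeR no list had a member past the adjusted threshold (by DESeq2 the N-glycan list had Mgat3), and in every list the scores of control and stressed libraries overlapped. A test of the 3 stressed groups being equal, which leaves the controls out, gave 0 genes by edgeR after Benjamini-Hochberg adjustment and 1007 (7.49%) at an unadjusted p under 0.05. DESeq2 gave 39 after adjustment. Of the 20 named genes, 8 had an unadjusted p under 0.05 in that edgeR test, among them Dnase1l3, Etl4 and Serpina3n but neither Mgat3 nor Rasgef1a.

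The count at an unadjusted p under 0.05 moved strongly with single libraries. It was 249, 252 and 239 without control replicates 1, 2 and 3, 334 without XCHT-H replicate 1, 1052 without XCHT-L replicate 1 and 992 without XCHT-L replicate 3, against 503 with all 12. The adjusted count was 0 in all 12 of these fits by edgeR. All 20 named genes kept their direction and an unadjusted p under 0.05 in each of the 12. They were chosen by their small p in these same libraries, so this describes them and lends no further support.

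**Figure D5:**
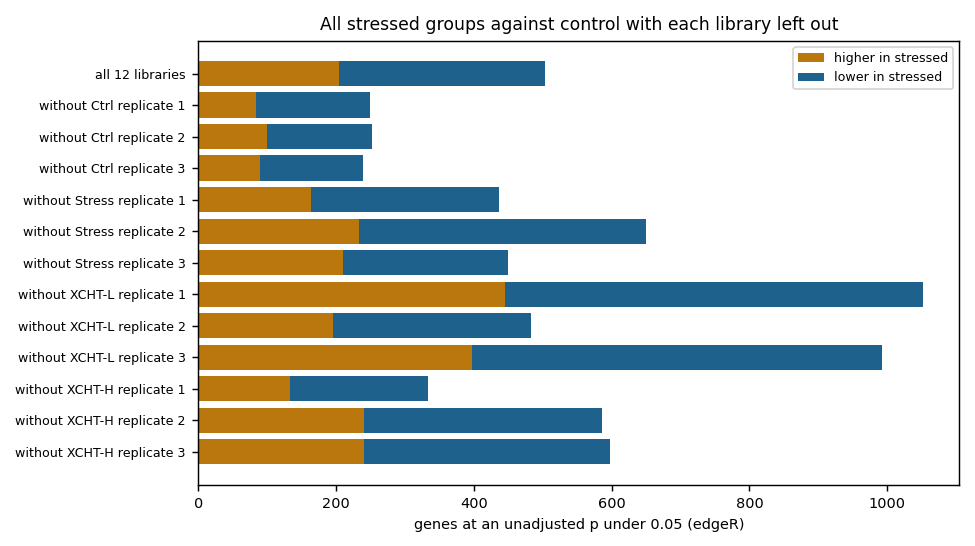
Number of genes at an unadjusted edgeR p under 0.05 (horizontal axis) in the averaged comparison, higher and lower in stressed tumours, with all 12 libraries and with each left out. The count runs from 239 without Ctrl replicate 3 to 1052 without XCHT-L replicate 1.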

How the data were processed

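The deposited estimated counts per gene were made by the authors, who per the submitters' processing notes used cutadapt 1.9, HISAT2 2.0.4, StringTie 1.3.4d, DESeq2 and edgeR with GRCm38.p6. The annotation and counting options are not given in the sources used here. Between 11.7% and 12.5% of values per library were not whole, and all were rounded; whole counts had been assumed when the tests were set. The deposited FPKM values, scaled by the authors for length and library size, served to name genes and check markers. Transcript length was a relative length derived from the deposited counts and the FPKM values of at least 1, not an annotated length. The deposited TPM values of the authors were used only to check units. Of 17875 genes 17820 matched the reference by Entrez ID, and 26 symbols turned into dates were restored.

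Genes passing filterByExpr (minimum count 10) were tested with TMM factors and edgeR 4.0.16 quasi-likelihood fits in R 4.3.3, in 1 model of 4 groups with 8 residual degrees of freedom. The contrast was the mean of the 3 stressed groups minus control, 2-sided, with Benjamini-Hochberg adjustment over all genes at 0.05. DESeq2 1.42.0 and limma 3.58.1 (voom) served as alternatives. Log2 CPM used a prior count of 2. CPM is not scaled for length and compares libraries, not genes.

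Named genes were the 10 per direction with the smallest p, 1 sign in the 3 groups, an FPKM of at least 1 in the higher arm and an official symbol; up to 3 members per list with the smallest p; and hormone receptors, not all of which are reported here. The comparison, the lists and the rule were chosen with earlier results of these data known. Of 1043 list entries, 1015 matched by symbol and 4 by synonym. The fit was tested on simulated data. Replicate numbers were not used as pairs: same-number correlations ran from -0.451 to 0.415. Pairs of libraries of a group had chi-square values per gene from 6.43 to 79.2, so none were treated as duplicates. The values ran from 6.43 to 9.3 in the controls and from 19 to 33.3 in Stress. They ran from 52.4 to 79.2 in XCHT-L and from 18.65 to 49.3 in XCHT-H, so the controls were the most alike. The edgeR model gave the 4 groups 1 shared estimate of the spread. What this does to the counts of single groups was not tested.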

Additional observations from a re-analysis of the deposited data

Results flagged for a closer look

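Among the scores of 54 gene lists in the 9 stressed libraries, 3 had a library that stood apart by Dixon's criterion, which chance meets in about 1 of 20 groups. The score of the red blood cell list was highest in XCHT-H replicate 1, at 3.14. The ribosomal protein score was highest in XCHT-L replicate 2, at 0.63. Across genes, that library's log2 differences from the mean of all 12 libraries correlated with log2 transcript length at r = -0.558. The score of Wnt feedback and crypt genes was lowest in XCHT-L replicate 1, at -0.30. None of the 20 named genes met that criterion. The part of these libraries in the list medians was not tested beyond leaving each out.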

How the results depend on the processing

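The 0 adjusted edgeR calls held with no filter, RLE factors, a count minimum of 50, the stressed libraries as 1 group, a muscle score covariate, length offsets, omission of the 3 muscle-rich libraries and each library left out. DESeq2 called 2 genes, both lower, and limma-voom 1, lower, with 1705 at an unadjusted p under 0.05 (676 higher, 1029 lower). Adding a log2 fold change of 1 or more in size to the unadjusted threshold gave 52 genes, 38 higher and 14 lower. With a library left out, the unadjusted count ran from 239 to 1052 (84 to 445 higher, 150 to 607 lower). Genes without overlap ran from 149 to 365, against 140 (1.04%) with all 12. Fewer libraries make that condition easier to meet, so a rise in that count is built in. With a library left out, the test among the stressed groups gave 0 to 210 adjusted calls, 210 without XCHT-L replicate 1, and 581 to 2930 unadjusted. DESeq2 gave 39 adjusted and 1236 unadjusted calls there. By edgeR the unadjusted count was 625 with length offsets and 545 without the muscle-rich libraries. After the data were seen, each stressed group was also left out: without Stress, 348 genes were higher and 362 lower at an unadjusted p under 0.05, and 1 differed between the 2 other groups after adjustment; without XCHT-L or XCHT-H, 414 and 1554 differed at an unadjusted p under 0.05. With the replicate number as a block, 0 genes passed and 472 had an unadjusted p under 0.05; 5 of 12 libraries correlated best with their own number. With the muscle covariate the log2 differences of Nr3c1 and Nr3c2 turned to -0.0071 and -0.0065. With a library left out, that of Nr3c1 ran from -0.011 (without XCHT-L replicate 1) to 0.069, that of Myh7 from -4.64 to 1.68 and that of Tnnt1 from -2.37 to 0.19, both turning without control replicate 1. The cause was not tested. Of the other values of named genes, 2335 over 25 settings kept their direction and side of the threshold. Depth limits Hcst, Marco and other genes under 1 CPM.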
